A study of Bos taurus with 10 samples.

Results

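The 10 genes described here act in the adipocyte, the fat-storing cell of adipose tissue: LIPE, PNPLA2, MGLL, G0S2 and CIDEA in the storage and breakdown of triglyceride, CAV1 and CAVIN1 in caveolae, and CEBPA, CFD and FABP5 as genes that adipocytes are known for. They were taken by gene symbol, with no value in the rule, and all 10 were among the 4366 genes named on the arrays, on 19 of the 5472 named cDNA elements. All 10 had at least 1 element with a value on every array, as did 4307 genes in all, and this was the only filter. RNA of 5 tissues from cattle at peak lactation was measured on 10 microarrays with 2 dyes: subcutaneous, mesenteric and omental adipose tissue, mammary gland and liver. Every tissue had 2 arrays with opposite dyes, Cy3 for the tissue on one and Cy5 on the other, and the second dye marked a common reference made from a mixture of tissues. The labels name a cow as the source but give no breed, age or treatment, and do not say whether the tissues share an animal.

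A value is the dye ratio of tissue over reference, taken as log2, centred on the median of its array and averaged over the 2 spots of an element. It places a gene relative to the reference, so it can be compared between tissues for 1 gene but not between genes. The pair of arrays of a tissue was taken as 1 RNA sample measured again. The spread between animals is unknown, so differences between single tissues carry no p-value, and the only p-values are those of 1 fit that takes the tissues as samples. The error after ± is the distance of each dye orientation from the mean of both. It covers only hybridisation and those dye effects that differ between tissues. A gene was called higher or lower where the difference was at least 1 log2 unit (2-fold) with the same sign in both orientations. Turning the contrast so that the tissue difference cancels leaves the disagreement between orientations, which reached that size in 15 to 28 of the 4307 genes. A dye bias that the arrays of an orientation share cancels too, so this dye contrast does not count genes moved by the dyes alone. The direction of the ratios is likely, not stated: in this direction only, 4 of 5 plasma protein genes of hepatocytes were called higher in liver than in the depots, and 5 of 5 milk protein and secretion genes higher in mammary gland. The opposite direction would turn every sign. Gene names rest on a rebuilt print layout, and a single element can carry a wrong name.

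In adipocytes, triglyceride lies in a lipid droplet and is broken down stepwise. Adipose triglyceride lipase (PNPLA2) removes the first fatty acid, hormone-sensitive lipase (LIPE) the next and monoglyceride lipase (MGLL) the last, while the G0S2 protein inhibits PNPLA2. Caveolae are small pits of the plasma membrane, abundant in adipocytes and endothelial cells, which need both caveolin-1 (CAV1) and the coat protein cavin-1 (CAVIN1) to form. In early and peak lactation dairy cows commonly draw on adipose triglyceride to supply milk fat and energy.

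Of the 10 genes, LIPE, CAV1, CAVIN1 and FABP5 were called higher in the mean of the 3 adipose depots than in liver. By the same mean, LIPE, CAV1, CEBPA and FABP5 were called higher than in mammary gland. In subcutaneous adipose tissue alone, LIPE (0.31) was level with mammary gland (0.31) and CAV1 (-0.55) was below it (-0.38). The calls of LIPE and CAV1 against mammary gland thus come from the visceral depots. LIPE, PNPLA2, CAV1 and CAVIN1 were called lower in subcutaneous than in visceral adipose tissue, that is, the mean of the mesenteric and omental depots. None was called between the mesenteric and the omental depot. In whole tissue, fewer cells of a type and less RNA per cell cannot be told apart.

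**Figure D1:**
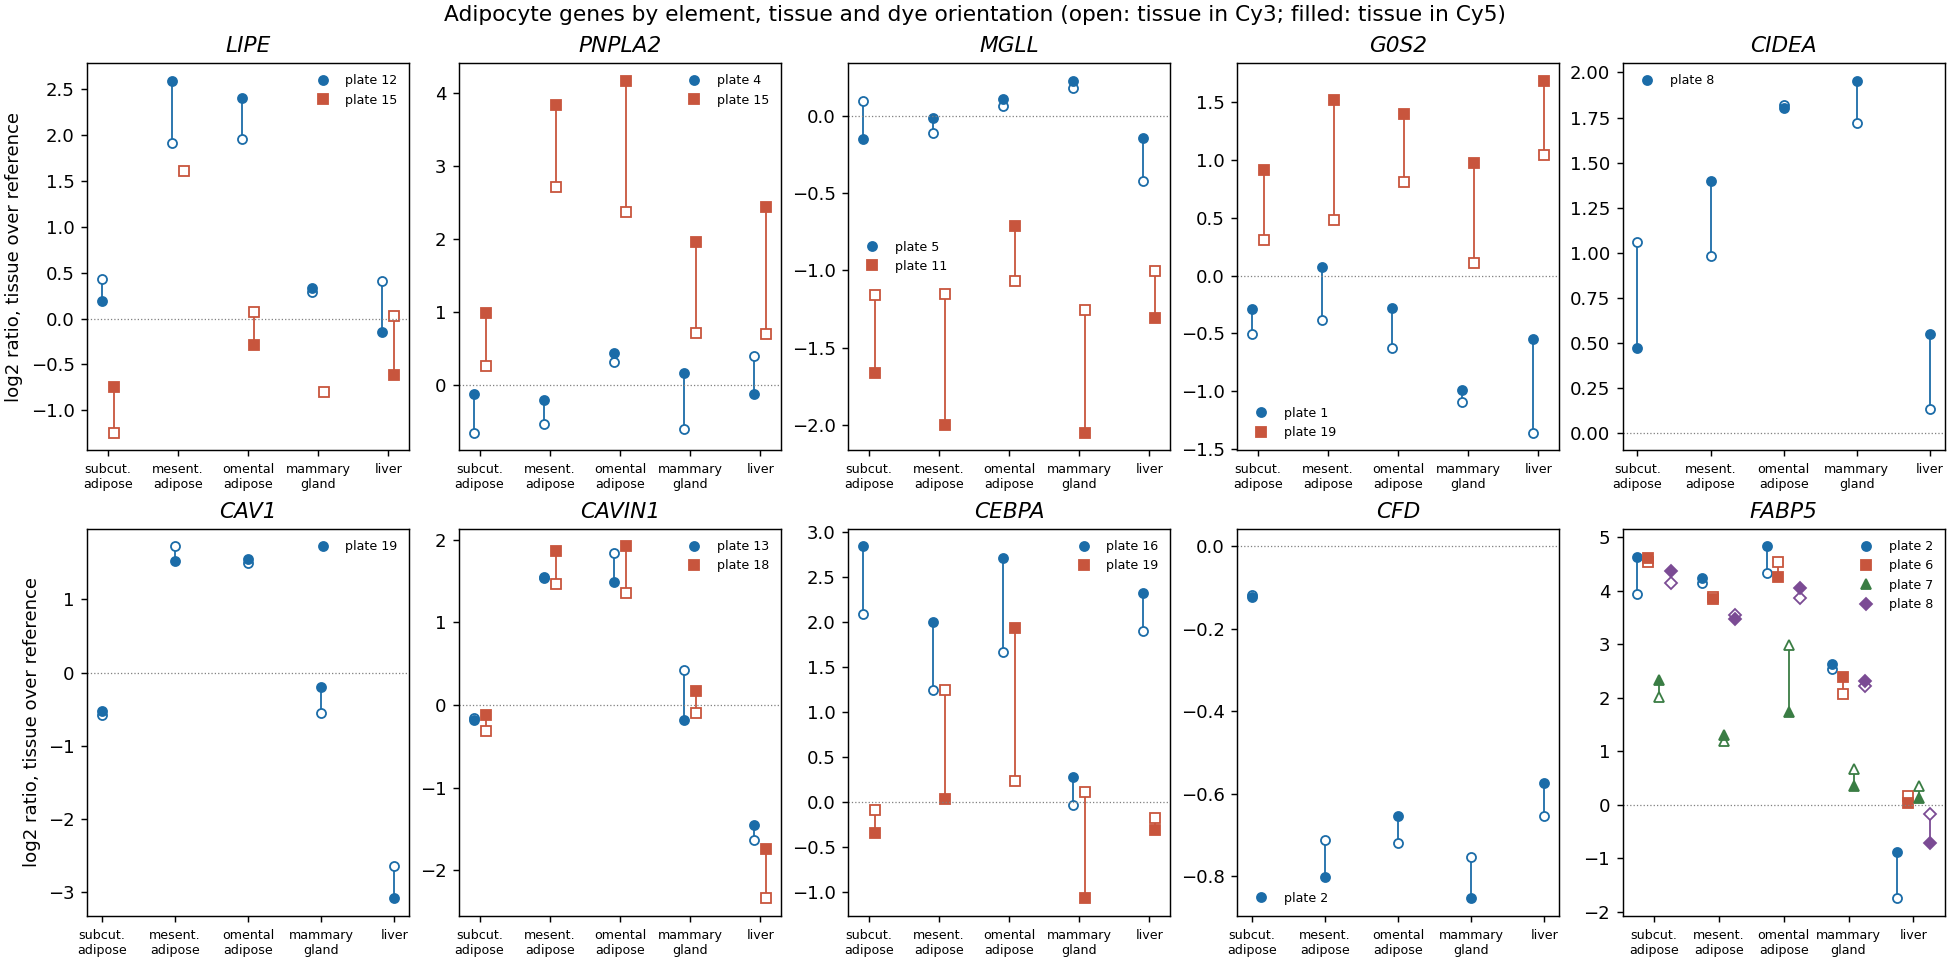
Log2 ratio of tissue over reference (vertical axis, a scale of its own in each panel) of every element of the 10 genes in 5 tissues (horizontal axis). Open symbols have the tissue in Cy3, filled symbols in Cy5, a line joins both arrays of a tissue, and colour and shape mark the source plate of the element; CAV1 lies between 1.5 and 1.72 in both visceral depots and at -0.20 or lower in the other 3 tissues.

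LIPE encodes hormone-sensitive lipase, which adrenergic signals activate in the adipocyte. In values given with the tissue in Cy3 first and in Cy5 second, its element of plate 12 had log2 ratios of 0.43 and 0.19 in subcutaneous, 1.92 and 2.59 in mesenteric and 1.96 and 2.40 in omental adipose tissue. In mammary gland it had 0.29 and 0.33, and in liver 0.41 and -0.15. Both visceral depots stood apart from the other 3 tissues, and subcutaneous adipose tissue overlapped mammary gland and liver. The difference was -1.91 ± 0.40 log2 units between subcutaneous and visceral adipose tissue (3.75-fold lower). The mean of the 3 depots was 1.45 ± 0.42 above liver and 1.27 ± 0.13 above mammary gland. Mesenteric and omental adipose tissue differed by 0.08 ± 0.12. A second element of LIPE, on plate 15, had a value on 8 of the 10 arrays and was not used. Its 2 spots on an array differed by a median of 1.05, against 0.10 over all named elements. With that element averaged in, the difference to liver fell to 1.04 and was still called. The difference to mammary gland was then 0.92 and no longer called, and mesenteric minus omental became 1.14. The plate 15 element had no value on the mesenteric and mammary gland arrays in Cy5, which then carried plate 12 alone. These averages thus set unlike elements against each other and do not measure a tissue difference alone.

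PNPLA2, the lipase of the first step, was measured by 2 elements that did not share a pattern (cosine of their profiles over the 5 tissues 0.39). On plate 15 the log2 ratios were 0.26 and 0.98 in subcutaneous, 2.70 and 3.83 in mesenteric and 2.37 and 4.16 in omental adipose tissue. In mammary gland they were 0.70 and 1.95, and in liver 0.69 and 2.43. Within each dye orientation the visceral depots were the highest and subcutaneous adipose tissue the lowest on this element. On plate 4 all values lay between -0.66 and 0.44, and the 2 spots of the element differed by a median of 1.13. Subcutaneous minus visceral was -2.65 ± 0.37 log2 units on plate 15 and -0.39 ± 0.15 on plate 4, a mean of -1.52 ± 0.11. The mean over both elements was 0.28 ± 0.08 above liver and 0.57 ± 0.12 above mammary gland, neither of them called. On plate 15 alone these differences were 0.82 ± 0.26 and 1.06 ± 0.02. Without centring of the arrays, subcutaneous minus visceral was -0.89 over both elements and not called.

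MGLL and G0S2 were called in no comparison. The 2 elements of MGLL had log2 ratios between -0.42 and 0.23 on plate 5 and between -2.05 and -0.72 on plate 11, and ranked the tissues differently (cosine -0.26). The tissue means of MGLL spanned 0.42 log2 units, the smallest span of the 10 genes, and no neighbours in its order of tissues differed beyond the dye limit. That limit is the 95th percentile over all genes of the dye error for the same pair of tissues, 0.30 to 0.55 log2 units. G0S2, the inhibitor of PNPLA2, had log2 ratios between -1.36 and 0.08 on plate 1 and between 0.11 and 1.68 on plate 19 (cosine 0.02). Liver was among the 2 lowest tissues on plate 1, at -1.36 and -0.55, and the highest on plate 19, at 1.05 and 1.68. Averaged over both elements, G0S2 was 0.54 ± 0.03 log2 units higher in the depots than in mammary gland and -0.27 ± 0.10 apart between subcutaneous and visceral adipose tissue. Its 2 elements disagree on liver, so the difference of 0.08 ± 0.09 to liver is a mean of 0.62 on plate 1 and -0.46 on plate 19.

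CIDEA encodes a lipid droplet protein of brown and white adipocytes that promotes droplet growth, and it is also made in lactating mammary epithelium of the mouse. Its element had log2 ratios of 1.06 and 0.47 in subcutaneous, 0.98 and 1.40 in mesenteric and 1.82 and 1.80 in omental adipose tissue. The values were 1.72 and 1.95 in mammary gland and 0.13 and 0.55 in liver. Omental adipose tissue and mammary gland overlapped at the top, and liver overlapped subcutaneous adipose tissue at the bottom. The depots were 0.91 ± 0.24 log2 units above liver and -0.58 ± 0.15 from mammary gland, the only one of the 10 genes whose mean was lower in the depots than in mammary gland. It was called in no comparison by the rule above. Against liver it passed the rule without centring (1.17), under quantile normalisation, in the Cy3 arrays alone (1.16) and with the visceral depots alone (1.16). Between subcutaneous and visceral adipose tissue the difference was -0.74 ± 0.39, and -1.13 in the Cy5 arrays alone. Mesenteric minus omental was -0.62 ± 0.22.

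CAV1 had the widest span of the 10 genes, 4.48 log2 units between mesenteric adipose tissue and liver. Its log2 ratios were -0.58 and -0.53 in subcutaneous, 1.72 and 1.53 in mesenteric and 1.5 and 1.55 in omental adipose tissue. In mammary gland they were -0.55 and -0.20, and in liver -2.64 and -3.08. The values fell into 3 levels that did not overlap: both visceral depots, then mammary gland with subcutaneous adipose tissue, then liver. The depots were 3.72 ± 0.20 log2 units above liver (13.2-fold), rank 4 of 4307 genes, and 1.24 ± 0.19 above mammary gland. Subcutaneous minus visceral was -2.13 ± 0.06 (4.37-fold lower), and mesenteric minus omental 0.10 ± 0.12.

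CAVIN1 was measured by 2 elements with nearly the same profile (cosine 0.997). On plate 13 the log2 ratios were -0.15 and -0.18 in subcutaneous, 1.54 and 1.55 in mesenteric and 1.83 and 1.49 in omental adipose tissue, and 0.42 and -0.18 in mammary gland and -1.63 and -1.45 in liver. On plate 18 they were -0.31 and -0.13, 1.47 and 1.86, and 1.36 and 1.92 in the same depots, -0.10 and 0.17 in mammary gland and -2.34 and -1.74 in liver. As for CAV1, the values fell into 3 separate levels: both visceral depots, then mammary gland with subcutaneous adipose tissue, then liver. The depots were 2.81 ± 0.13 log2 units above liver (7.01-fold, rank 19) and 0.94 ± 0.15 above mammary gland, just short of the size rule. Subcutaneous minus visceral was -1.82 ± 0.04 (3.53-fold lower), and mesenteric minus omental -0.05 ± 0.05. Over the 10 arrays, which share 5 samples, the profiles of CAV1 and CAVIN1 correlated at r = 0.99. CAVIN1 ranked 2 among the genes most like CAV1, and CAV1 ranked 1 for CAVIN1, out of 1413 other genes that spanned at least 1 log2 unit.

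CEBPA encodes a transcription factor that drives and keeps adipocyte differentiation and is also strong in hepatocytes. On plate 16 its log2 ratios were 2.09 and 2.84 in subcutaneous, 1.24 and 2.00 in mesenteric and 1.66 and 2.71 in omental adipose tissue. They were -0.04 and 0.28 in mammary gland and 1.90 and 2.32 in liver. On this element mammary gland stood alone at the bottom, and liver lay within the range of the depots. The second element, on plate 19, ran from -1.08 to 1.93, and its spots on an array differed by a median of 0.81 and by up to 3.39. Averaged over both, the depots were 1.48 ± 0.45 log2 units above mammary gland and 0.36 ± 0.16 above liver. On plate 16 alone the differences were 1.97 ± 0.27 and -0.02 ± 0.21. Subcutaneous minus visceral was 0.56 ± 0.08 on plate 16 and -1.08 ± 0.25 on plate 19, so the mean of -0.26 ± 0.16 joins opposite signs.

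CFD encodes adipsin, complement factor D, a serine protease of the alternative complement pathway that adipocytes secrete. Its element had log2 ratios of -0.12 and -0.12 in subcutaneous, -0.71 and -0.80 in mesenteric and -0.72 and -0.65 in omental adipose tissue. In mammary gland it had -0.75 and -0.85, and in liver -0.65 and -0.57. Subcutaneous adipose tissue stood above the other 4 tissues, which lay between -0.85 and -0.57. It differed by 0.60 ± 0.01 log2 units between subcutaneous and visceral adipose tissue, under the size rule. The depots were 0.09 ± 0.05 from liver and 0.28 ± 0.04 from mammary gland. Without centring, subcutaneous minus visceral was 1.23 and called, where the median of all genes was 0.64.

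FABP5 encodes the epidermal fatty acid binding protein, a carrier of fatty acids in the cytosol that adipocytes and macrophages both make. Its 4 elements gave 3.94 and 4.62, 4.53 and 4.62, 2.00 and 2.33, and 4.14 and 4.37 in subcutaneous adipose tissue, in the order of plates 2, 6, 7 and 8. In liver they gave -1.75 and -0.88, 0.16 and 0.03, 0.35 and 0.12, and -0.18 and -0.71. In each element every depot array lay above both mammary gland arrays, and every mammary gland array above both liver arrays but for plate 7, where the mammary gland array in Cy5, at 0.34, lay below the liver array in Cy3. The gene means were 3.65 and 3.99 in subcutaneous, 3.19 and 3.21 in mesenteric and 3.93 and 3.71 in omental adipose tissue, 1.87 and 1.91 in mammary gland, and -0.35 and -0.36 in liver. The depots were 3.97 ± 0.03 log2 units above liver (15.7-fold), rank 2 of 4307 genes, and 1.72 ± 0.00 above mammary gland (3.30-fold). Per element the difference to liver was 5.67, 4.18, 1.68 and 4.35 in the same order of plates, so its size depended on the element and its sign did not. Subcutaneous minus visceral was 0.31 ± 0.21, and mesenteric minus omental -0.62 ± 0.12. The sign of the former moved with the scaling, from -0.26 under quantile normalisation to 0.94 without centring, neither of them called.

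**Figure D2:**
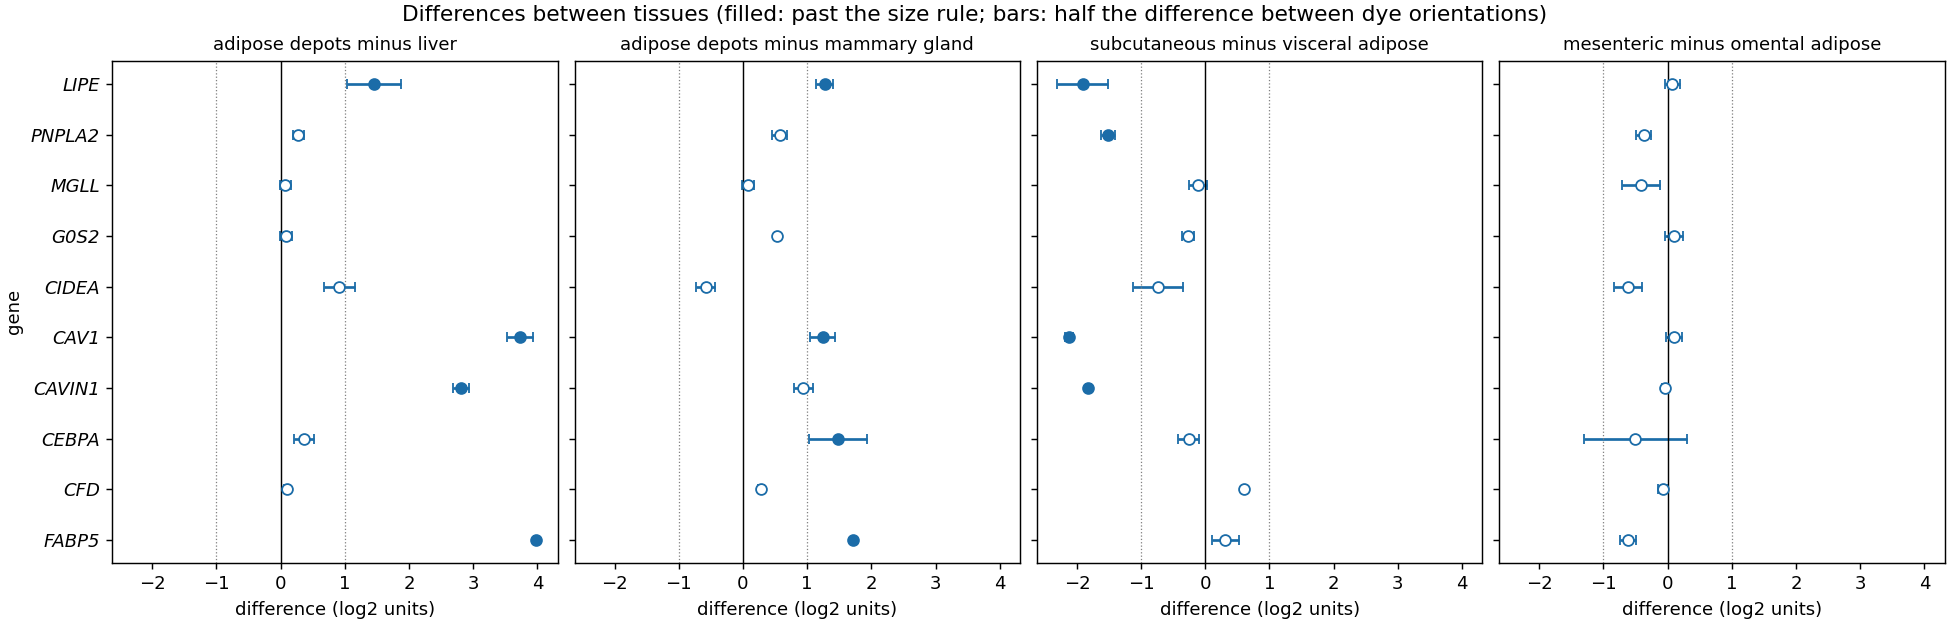
Difference of log2 ratios (horizontal axis, log2 units) of the 10 genes (vertical axis) in the 4 comparisons; filled points are at least 1 log2 unit from 0 with the same sign in both dye orientations, dotted lines mark that size, and bars reach the values of both dye orientations. FABP5 (3.97), CAV1 (3.72), CAVIN1 (2.81) and LIPE (1.45) are called in the depots minus liver, and CAV1, LIPE, CAVIN1 and PNPLA2 lie below -1.5 in subcutaneous minus visceral.

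Set against all named genes, 4 of the 10 genes were called higher in the depots than in liver and none lower, with a median difference of 0.64 log2 units against 0.06 over all genes. By the same rule 13.3% of the 4307 genes were called in either direction, 6.01% higher (259 genes) and 7.31% lower (315). In the depots minus mammary gland 4 were called higher and none lower, where 9.57% of all genes were called, 6.73% higher (290) and 2.83% lower (122). The median of the 10 genes was 0.76, against 0.06 over all. In subcutaneous minus visceral 4 were called lower and none higher, where 9.75% of all genes were called, 6.2% higher (267) and 3.55% lower (153). The median of the 10 genes was -0.50, against 0.01 over all. Between mesenteric and omental adipose tissue none of the 10 was called, against 1.04% of all genes, 0.557% higher and 0.488% lower, and their median was -0.22.

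The split of all genes into higher and lower moved with the scaling of the arrays. Without centring it was 435 higher and 231 lower against liver, 853 and 38 in subcutaneous minus visceral, and 11 and 65 in mesenteric minus omental, where 24 and 21 were called with centring. Those differences had medians over all genes of 0.32, 0.64 and -0.32 before centring. Under quantile normalisation the split against mammary gland was 220 and 151. The differences of the 10 genes called with centring kept their sign under each scaling.

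**Figure D3:**
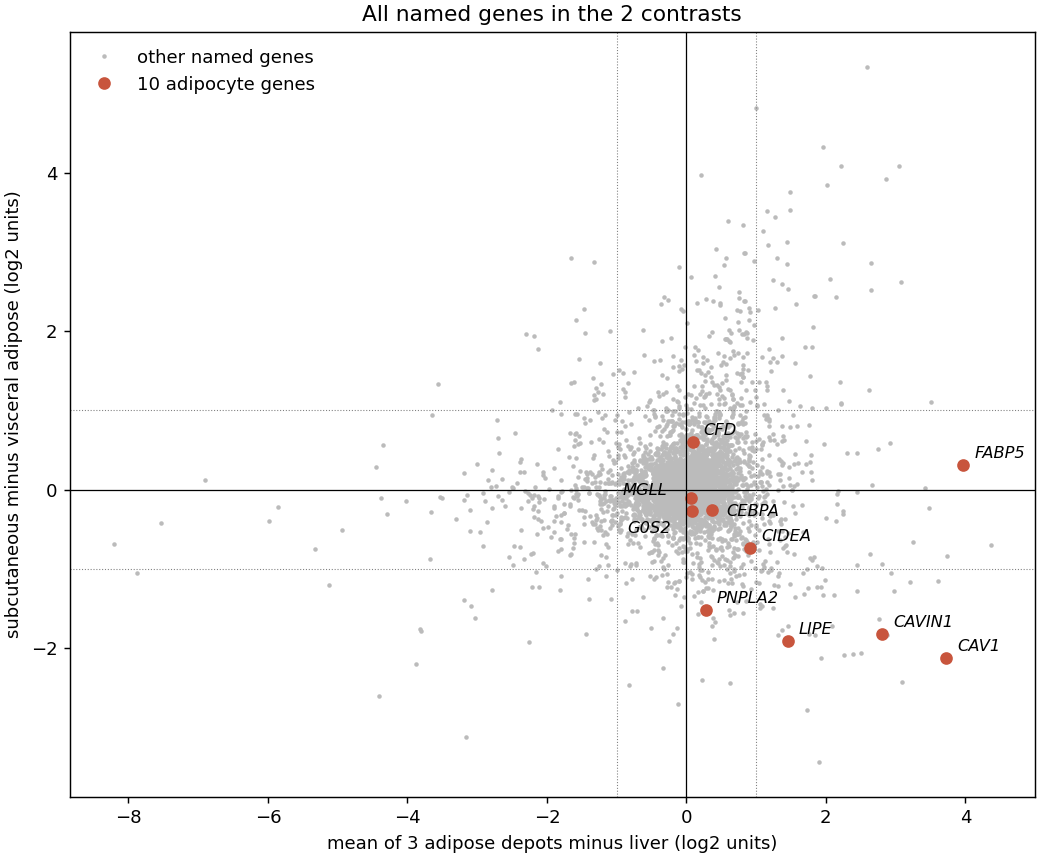
Each point is 1 of the 4307 named genes, by its difference between the 3 adipose depots and liver (horizontal axis, log2 units) and between subcutaneous and visceral adipose tissue (vertical axis, log2 units), with the 10 adipocyte genes in red and dotted lines at 1 and -1. LIPE, CAVIN1 and CAV1 lie at the lower right, high against liver and low in subcutaneous adipose tissue, while FABP5 lies at the far right with 0.31 on the vertical axis; both axes share the 3 depots.

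The 3 depots were all above both mammary gland and liver in LIPE, CEBPA and FABP5, by tissue means, as in 19.8% of all named genes. The lowest depot was separated from the next tissue beyond the dye limit in FABP5, and not in LIPE and CEBPA. None of the 10 had all depots below both, as in 15.8% of all genes. Both visceral depots were above the other 3 tissues in 6 of the 10, LIPE, PNPLA2, G0S2, CAV1, CAVIN1 and CEBPA, as in 13.1% of all genes. The lower visceral depot was separated from the next tissue beyond the dye limit in LIPE, PNPLA2, CAV1 and CAVIN1. It was not in G0S2 (0.12 log2 units above liver) and CEBPA (0.01 above subcutaneous adipose tissue), whose 2 elements each disagree on which tissue is highest. The order of LIPE rests on its element of plate 12 alone. In PNPLA2 the order does not hold on plate 4, where mesenteric adipose tissue (-0.37) lay below liver (0.14) and mammary gland (-0.22). In PNPLA2, CAV1 and CAVIN1 subcutaneous adipose tissue was below mammary gland, by 0.44, 0.18 and 0.27 log2 units, all within the dye limit. LIPE had a mean log2 ratio of 0.31 in both subcutaneous adipose tissue and mammary gland. By gene means, the order of FABP5 was omental and subcutaneous adipose tissue together, then mesenteric adipose tissue, mammary gland and liver. Each of the last 3 was separated from the tissue before it. On plate 2 with the tissue in Cy3, mesenteric adipose tissue (4.14) was above subcutaneous adipose tissue (3.94).

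Taking the depots as 3 samples of adipose tissue and mammary gland and liver as 2 samples of other tissue, limma called none of the 10 genes at an adjusted p under 0.05, and 0% of the 4307 genes. At an unadjusted p under 0.05 it gave 1 of the 10 and 595 genes in all (13.8%). The residual spread in that fit is between unlike tissues, not animals. FABP5 had the lowest adjusted p of the 10, with a difference of 2.85 log2 units (95% interval 1.08 to 4.62, limma adjusted p = 0.230, 0.0181 to 0.338 over 7 alternatives). Its tissue means were higher in 3 of 3 depots than in both other tissues. CAV1 stood at 2.48 (limma adjusted p = 0.376), CAVIN1 at 1.88 (0.395), LIPE at 1.36 (0.425) and CEBPA at 0.92 (0.384).

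Other genes of the same pathways were taken from lists by name. Of 14 other measured genes of lipolysis and the lipid droplet, 1 was called higher and none lower in the mean of the depots than in liver. It was LIPA, at 1.001 ± 0.009 log2 units. Only subcutaneous adipose tissue (5.29) was above liver (1.07) in LIPA, and mesenteric (0.18) and omental adipose tissue (0.76) were below it. Against mammary gland LIPA, the acid lipase of the lysosome, was called higher (3.17 ± 0.12), and PLIN2, a coat protein of lipid droplets and milk fat globules (-3.38 ± 0.21), the small GTPase gene RAB18 (-1.71 ± 0.16) and the glycerol channel gene AQP3 (-1.16 ± 0.46) lower. In subcutaneous minus visceral LIPA was called higher at 4.82 ± 0.12, and ACSL1, which activates long-chain fatty acids, at -1.58 ± 0.01 and RAB7A, a GTPase of late endosomes, at -1.28 ± 0.13 were called lower. The other 11 were not called. The list's median in that comparison was -0.04, close to the 0.01 of all genes.

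Of 5 other measured caveola genes, CAVIN3, a cavin that binds cavin-1, and FLNA, the filamin that links caveolin to actin, were called higher in the depots than in liver, at 1.87 ± 0.44 and 2.17 ± 0.17 log2 units. In subcutaneous minus visceral CAVIN3 was called lower at -1.23 ± 0.22, in the same direction as CAV1 and CAVIN1, and FLNA stood at -0.02 ± 0.14. EHD1, PACSIN2 and FLOT2 were called in no comparison. Against mammary gland none of the 5 was called (median 0.41).

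Of 9 other measured genes of adipocyte identity, RBP4, the retinol carrier that liver also secretes in large amount, was called lower in the depots than in liver (-4.41 ± 0.06 log2 units) and higher than in mammary gland (3.23 ± 0.41). RBP4 was lower in subcutaneous than in visceral adipose tissue, at -2.61 ± 0.13. APMAP, an adipocyte membrane protein gene, was called lower in the depots than in liver at -1.05 ± 0.01, and CEBPD lower in mesenteric than in omental adipose tissue at -1.51 ± 0.00. CEBPB, KLF15, KLF9, TLE3, ADIPOR1 and ADIPOR2 were called in no comparison. CRABP2, the other measured gene of the binding protein list, was not called either. CFP, properdin of the same complement pathway as CFD, was called higher in the depots than in mammary gland (1.71 ± 0.19) and in subcutaneous than in visceral adipose tissue (1.86 ± 0.08). ADIPOQ, LEP, PPARG, FABP4 and PLIN1, which define adipocytes, were not analysed here. No adipocyte gene outside those described was used to check the labels of the depots, which were taken as given.

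Markers of other cell types also differed between the tissues, in directions that depended on the list. Of 9 measured fibroblast and matrix markers, 8 were called higher in the depots than in liver and 8 than in mammary gland (medians 3.24 and 2.21 log2 units), led against liver by COL1A2 (4.36 ± 0.17), MMP2 (3.73 ± 0.14) and COL3A1 (3.61 ± 0.06). Their list median was 0.82 in subcutaneous, 1.60 in mesenteric and 1.84 in omental adipose tissue, -0.93 in mammary gland and -1.43 in liver. CAV1 and CAVIN1 are also made by fibroblasts and smooth muscle. Of 8 smooth muscle and pericyte markers, 5 were called higher in the depots than in liver and 1 than in mammary gland. In subcutaneous minus visceral 5 were called lower, MCAM at -2.43 ± 0.25, TAGLN at -1.77 ± 0.03, TPM2 at -1.45 ± 0.07 and SMTN at -1.10 ± 0.25 among them.

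Of 10 endothelial markers, 5 were called lower in subcutaneous than in visceral adipose tissue and none higher (median -0.97 log2 units). CDH5 stood at -1.52 ± 0.22, TEK at -1.33 ± 0.07, LYVE1 at -1.26 ± 0.10 and KDR at -1.17 ± 0.05. Their median log2 ratio was 0.71 in subcutaneous (0.06 to 1.75 over the 10 genes), 1.84 in mesenteric (0.38 to 2.91) and 1.91 in omental adipose tissue (0.23 to 2.47), 0.82 in mammary gland and 1.14 in liver. Among the depots the endothelial median was lowest in subcutaneous adipose tissue, as were CAV1 and CAVIN1. In liver the endothelial median lay above that of subcutaneous adipose tissue, while CAV1 and CAVIN1 had their lowest values there. Of 16 epithelial markers 8 were called lower in the depots than in mammary gland and 1 higher (median -1.19). The part of endothelial, epithelial, smooth muscle and fibroblast RNA in the values of the 10 genes was not tested.

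Of 19 myeloid markers, 15 were called higher in subcutaneous than in visceral adipose tissue (median 2.89 log2 units), S100A12 at 5.33 ± 0.09, CYBB at 4.32 ± 0.04, LGALS3 at 4.09 ± 0.19 and SPP1 at 3.91 ± 0.14 leading. C1QC, named after its value was seen, was called lower at -1.38 ± 0.34. Their median log2 ratio was 2.61 in subcutaneous (0.71 to 6.63 over the 19 genes), 1.10 in mesenteric (-2.30 to 2.61) and 1.29 in omental adipose tissue (-1.998 to 3.01), 0.22 in mammary gland and 0.68 in liver. LIPE, PNPLA2, CAV1 and CAVIN1 were low in the depot where these markers were high. FABP5, which macrophages also make, was at 3.82 in both subcutaneous and omental adipose tissue. The part of myeloid RNA in these values, and in those of LIPA and CFP, was not tested.

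**Figure D4:**
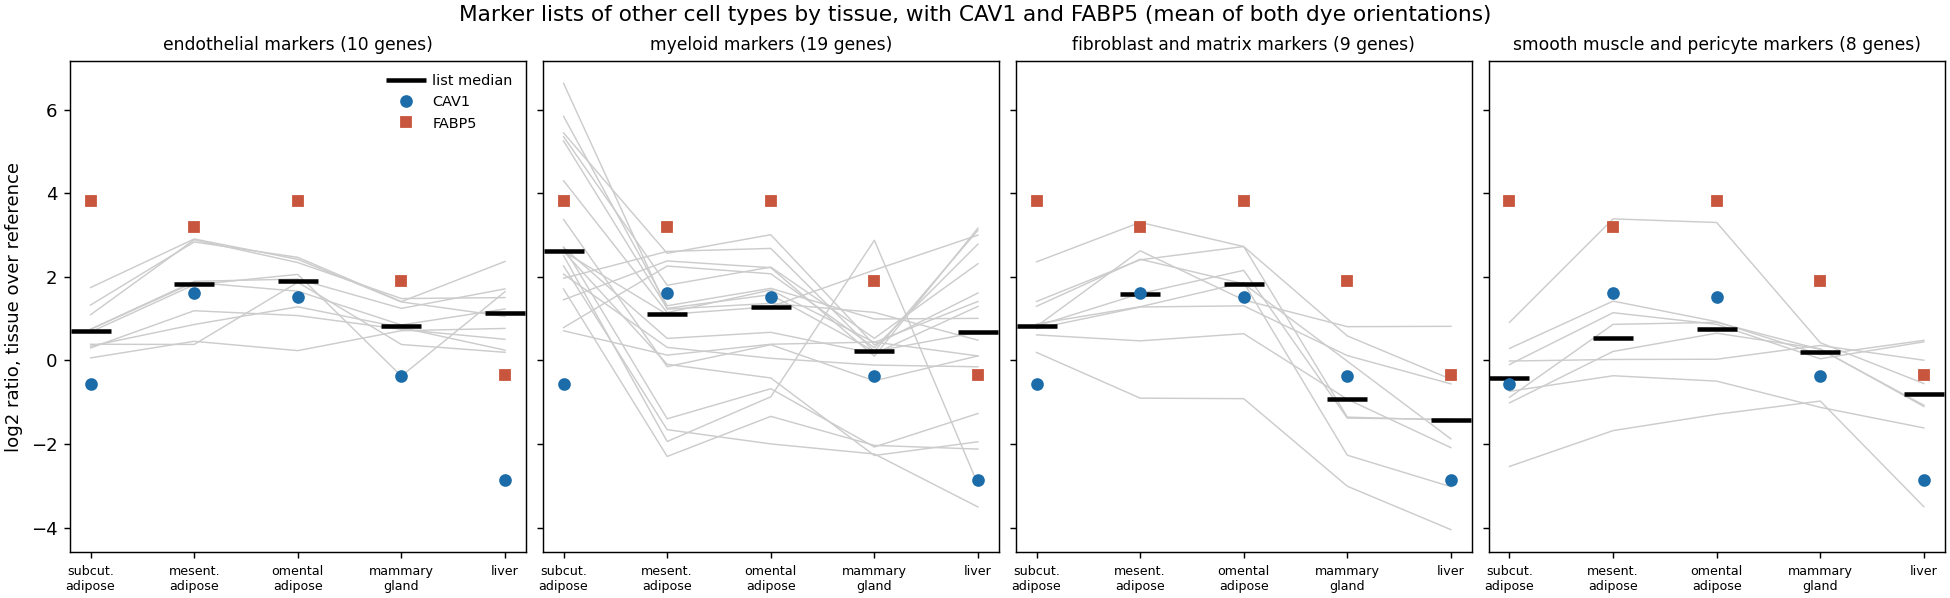
Log2 ratio of tissue over reference (vertical axis) in 5 tissues (horizontal axis), as the mean of both dye orientations; grey lines are the single markers of each list, black bars the list median, blue circles CAV1 and red squares FABP5. The myeloid median is highest in subcutaneous adipose tissue (2.61), where the endothelial median (0.71) and CAV1 (-0.55) are below their visceral values.

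For each of the 7 genes whose tissue means spanned at least 1 log2 unit, the most similar of 1413 other such genes were sought by correlation over the 10 arrays, after removing each dye orientation's mean. These values describe 5 samples and carry no p. LIPE was closest to H19, an imprinted noncoding RNA gene (r = 0.99), S100G (0.97) and LAMA4, a laminin chain gene (0.97). PNPLA2 was closest to ACSL1 (0.96), CLIC4 (0.96) and PDK4, a kinase that restrains pyruvate oxidation (0.95). PNPLA2 and LIPE correlated at 0.86, rank 34 on the list of PNPLA2 and rank 81 on that of LIPE. The search used gene means, which for PNPLA2 and CEBPA join 2 elements with unlike profiles (cosines 0.39 and 0.38). Their closest genes, and the correlation of PNPLA2 with LIPE, describe that mean and not a single element.

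CAV1 was closest to DOCK9 (0.99), CAVIN1 (0.99) and GPX8 (0.98), and CAVIN1 to CAV1, ESYT1 (0.98) and RTN3 (0.98). FABP5 was closest to the tropomyosin gene TPM4 (0.99), LOC788293 (0.99) and CS, citrate synthase (0.99). CIDEA was closest to TPM1 (0.94), the proteasome gene PSMD8 (0.91) and TSPAN13 (0.89), and CEBPA to ATP5IF1 (0.89), RESF1 (0.88) and RBPMS (0.86). Of the 7 genes searched, CAV1 and CAVIN1 were the only pair with each among the other's 3 closest.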

How the data were processed

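Values were the deposited ratios of the dyes in the series' value table, taken as log2 ratios from their ceiling of 16.61 (the authors' deposited log2 values, 94 at the ceiling set to missing). Per the labels, slides were read with GenePix; how background was treated and arrays were normalised is not given in the sources used. Array medians ran from -1.32 to 0.71 as deposited, and 15970 to 16245 of 16416 spots had a value. Without channel intensities, precision is limited by how many arrays there are.

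The sign was turned on arrays whose tissue was in Cy3, since the 2 arrays of a tissue correlated at -0.78 to -0.66. Labels of 1 omental array disagree on its dye; the dye label was used. Adjacent spots were duplicates (r = 0.83 to 0.92, other neighbours 0.03 to 0.10). Element names were joined through 384-well plates by the layout in which clones of a gene agreed best, searched without the 10 genes (mean cosine 0.45 over 1295 pairs, next layout 0.13, identifiers at face value 0.00), for 20 plates. Names came from RefSeq's gene table of ARS-UCD2.0 (5467 of 5472 elements matched). A gene is the mean of its elements with values on all arrays. Genes, lists and tests were chosen with earlier results of these data known. Genes outside the 10 were named by rule: from each list up to 4 with the largest difference in a comparison, all that were called in the pathway lists, and the 3 most similar to each gene; the uncalled rest of 2 short lists is named without values. Tools were limma 3.58.1 in R 4.3.3 (Benjamini-Hochberg over all genes) and numpy 2.4.6, tested on simulated data. The simulated data for limma lacked the real spread between unlike tissues, so its performance under such spread was not tested. Alternatives covered scaling, replicates, elements, ceiling values, the size rule, the depots used and the array with disagreeing labels.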

Additional observations from a re-analysis of the deposited data

How the results depend on the processing

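Of 420 differences of the 10 genes recomputed under the alternatives, 350 stayed within a limit set somewhat wider than the dye error. The other 70 went past it, and no called difference changed sign. Part of the 350 was fixed in advance, so the count does not measure stability. The larger size rule changes no difference, and leaving out 1 dye orientation moves each by exactly its dye error. A median over elements equals their mean in every gene but FABP5. Leaving out all arrays of 1 dye orientation, which leaves 1 array per tissue, gave 4 to 5 called genes against liver, 4 to 5 against mammary gland, 4 to 5 in subcutaneous minus visceral and 0 to 1 in mesenteric minus omental (CEBPA at -1.31), and 0 by limma either way. With a size rule of 1.5 log2 units 1 gene, FABP5, stayed called against mammary gland, and LIPE was no longer called against liver, which left 3. With elements of incomplete values added, an alternative chosen after seeing the data, 1 gene (LIPE) was called in mesenteric minus omental. There the mesenteric array in Cy5 carried 1 element of LIPE and the omental arrays both, so that call mixes unlike elements. Leaving out elements whose duplicate spots disagreed, also chosen after seeing the data, added PNPLA2 against mammary gland (1.06) and turned CEBPA to 0.56 in subcutaneous minus visceral. Visceral depots alone gave 5 called genes against liver and 6 against mammary gland. Without centring, limma called 1 of the 10, FABP5, and 33 genes in all (24 higher, 9 lower), against 0 with centring. The dye contrast reached the size rule in 44 genes against mammary gland without centring, against 28, and in 35 against liver under quantile normalisation, against 19. The causes were not tested. Without the omental array whose labels disagree, each of the first 3 comparisons kept its own 4 called genes. No paired analysis was possible because both arrays of a tissue were taken as 1 RNA sample, which the labels do not state, and the replicate numbers mark the dye orientation. Signal over background is unknown, and without replicate animals no difference can be set against the spread between cows.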
